A study of Rattus norvegicus with 9 samples.

Results

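Intestinal identity transcription factors are described here in rat proximal colon under 3 dietary proteins. The genes sought were Cdx1, Cdx2, Hnf4a, Foxa1, Foxa2, Foxa3, Gata4 and Gata6, and a probe set was taken where the platform annotation gave it 1 of these symbols and no other. This gave 13 probe sets of 7 genes, of 4736 genes with such a probe set on the array, and no probe set of Cdx2 was found. The diets held whey protein hydrolysate (WPH), soy protein isolate (SPI) or casein (CAS, the control), were isocaloric and purified, differed only in protein source, and were fed to mothers and then to their offspring for life. All 3 groups were male Sprague Dawley rats that received azoxymethane (AOM), a colon carcinogen, as adults, and tissue free of tumor was taken from the proximal colon 40 weeks later. No group without AOM was analysed. Each diet was represented by 1 RNA pool of 7 rats, from which 3 cRNA targets were made, so that 9 Affymetrix RG_U34A arrays were read, and the spread between the 3 arrays of a diet, to which every p-value below refers, is technical and not that between rats. Values are MAS 5.0 signals, a linear measure of probe set brightness, with an array average set to 500 by the authors. A signal under 100 is treated here as dim.

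CDX1 and CDX2 are homeodomain proteins that set and keep intestinal character along the gut. HNF4α, a nuclear receptor, and the forkhead proteins FOXA1, FOXA2 and FOXA3, which can open chromatin, act with them on enterocyte, goblet cell and endocrine genes. GATA6 is found in epithelium along the intestine, whereas GATA4 is, in mice, characteristic of the duodenum and jejunum and nearly absent from colon. In a sample of the whole colon wall, fewer epithelial cells and less RNA per epithelial cell cannot be told apart.

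Of these factors, Cdx1, Hnf4a, Foxa2, Foxa3 and Gata6 all had lower signals with WPH than with CAS, and none was higher. With SPI, Cdx1, Foxa3, Gata6 and 1 probe set of Hnf4a were lower than with CAS, each with a smaller log2 change than with WPH, whereas 1 of the Gata4 probe sets was higher. The difference between WPH and SPI itself was called by all compared probe sets but that of Cdx1, 1 of Foxa3 and 1 of Gata4. WPH against CAS gave 7 member probe sets lower and 0 higher of 9 compared, at an adjusted p under 0.05 by limma, while 38.8% of the 5606 probe sets compared were called, 17.9% lower and 20.9% higher. In SPI against CAS, 5 were lower and 1 was higher, against 22.2% called over all compared, 10.2% lower and 12.0% higher. For WPH against SPI the counts were 6 lower and 0 higher, against 19.9% called, 10.1% lower and 9.83% higher. A probe set was compared if any diet had a mean of at least 100, and the other 4 of the 13, which lay under 100 on every array, gave no further call when all 8740 probe sets were tested. Without the filter the lower calls stayed at 7, 5 and 6 of 13, against 11.0, 6.17 and 6.14% of all probe sets, and the higher calls at 0, 1 and 0, against 12.8, 6.91 and 5.50%. The median log2 change of the 9 was -2.19, -0.97 and -1.10 in WPH against CAS, SPI against CAS and WPH against SPI, and over all probe sets compared it was 0.06, -0.01 and 0.08.

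**Figure D1:**
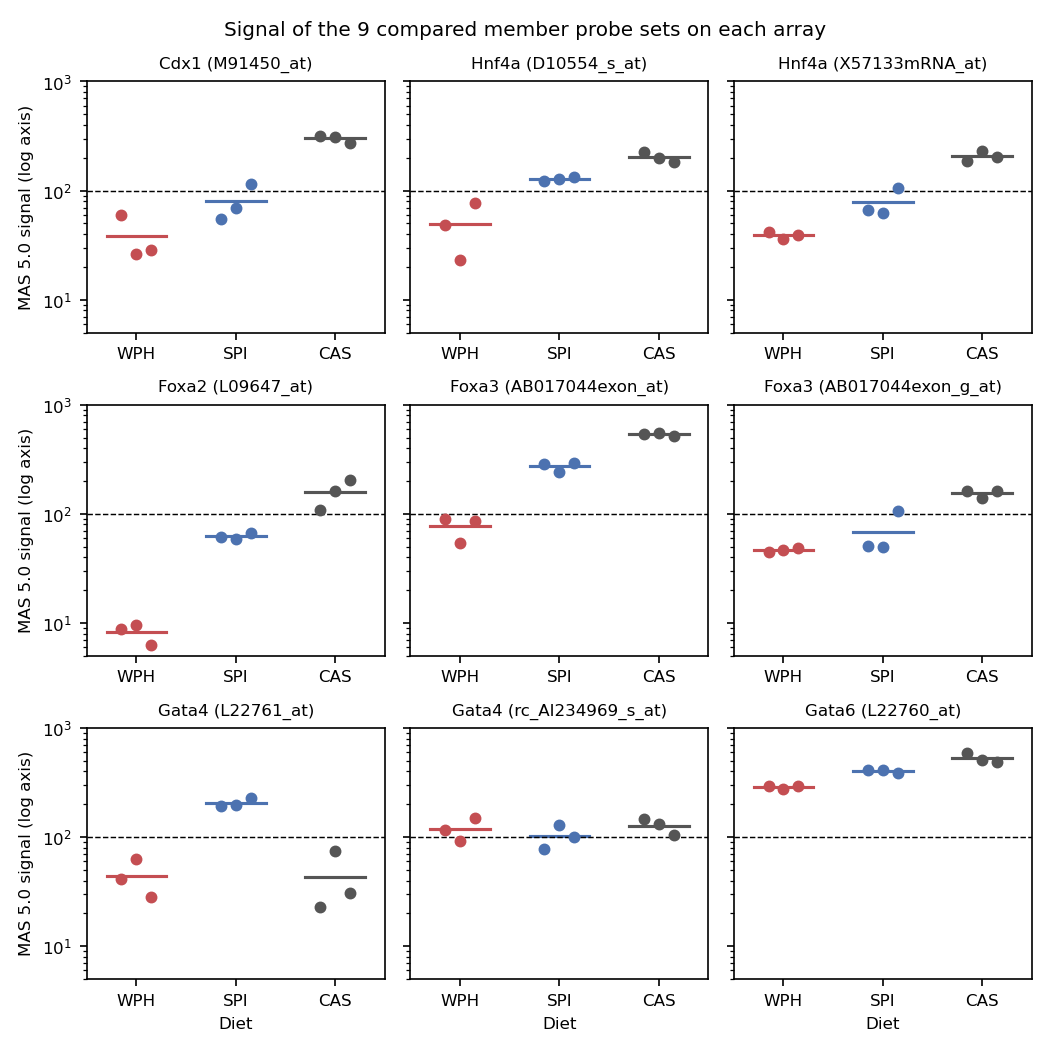
MAS 5.0 signal (log axis) of the 9 compared member probe sets on each array, by diet. Points are arrays, short bars are means of 3 arrays, and the dashed line is at 100. Of the 9, 7 were called lower in WPH against CAS, against 17.9% of the 5606 probe sets compared. Gata4 by L22761_at is above 100 with SPI alone.

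Sequence upstream of 3 genes that were lower with WPH is shown, from RefSeq on build GRCr8, to let the member promoters be compared. Each window is the 250 bases before an annotated start, 5′ to 3′ on the gene's strand, with motif matches in capitals. Cdx1 lies at chr18:56761300-56761549 on the minus strand, Foxa2 at chr3:155927509-155927758 on the minus strand, and Hnf4a, with 2 annotated starts, at chr3:172605970-172606219 and chr3:172641586-172641835 on the plus strand.
Cdx1: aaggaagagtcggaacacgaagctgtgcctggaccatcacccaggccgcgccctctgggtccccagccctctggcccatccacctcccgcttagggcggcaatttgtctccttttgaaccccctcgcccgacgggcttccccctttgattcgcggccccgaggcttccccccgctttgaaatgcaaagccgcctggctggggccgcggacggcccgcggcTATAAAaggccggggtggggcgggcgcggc
Foxa2: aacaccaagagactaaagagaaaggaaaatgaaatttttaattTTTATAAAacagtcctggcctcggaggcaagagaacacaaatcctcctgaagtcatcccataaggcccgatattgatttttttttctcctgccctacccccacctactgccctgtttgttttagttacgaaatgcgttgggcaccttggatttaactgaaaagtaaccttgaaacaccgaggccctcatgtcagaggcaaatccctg
Hnf4a, upstream start: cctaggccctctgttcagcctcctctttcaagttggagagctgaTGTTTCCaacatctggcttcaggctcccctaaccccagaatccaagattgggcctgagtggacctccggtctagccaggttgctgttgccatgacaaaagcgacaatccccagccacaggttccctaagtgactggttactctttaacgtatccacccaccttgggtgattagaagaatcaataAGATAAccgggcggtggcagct
Hnf4a, downstream start: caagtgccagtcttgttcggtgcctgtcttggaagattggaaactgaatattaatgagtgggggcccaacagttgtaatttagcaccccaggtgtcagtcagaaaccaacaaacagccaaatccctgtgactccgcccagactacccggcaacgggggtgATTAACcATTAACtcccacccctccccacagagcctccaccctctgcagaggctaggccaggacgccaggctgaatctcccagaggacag

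The motifs were searched on both strands of the same 250 bases of 33469 promoters. TATAAA, the TATA box, was found in 12.9% of them and TTTAT, a CDX site, in 39.3%, and the reverse complement of the CDX letters lies inside TATAAA. The FOXA letters TGTTTNC were in 18.3%, the GATA letters AGATAA in 10.3%, an HNF1 core, GTTAAT, in 6.45%, and an HNF4 core, CAAAGTCC, in 1.14%. The Cdx1 window held a TATA box 30 bases before the start, with G or C at 68.4% of its bases. In the Foxa2 window, of 42.8% G or C, TATA box and CDX letters overlapped about 200 bases upstream, with the first base at -207. At the upstream start of Hnf4a a FOXA match began at -206 and a GATA match at -22, and at the downstream start 2 HNF1 cores, as ATTAAC on this strand, began at -90 and -83. The Foxa3 window had a TATA box at -82, the Cdx2 window a FOXA match at -196 and an HNF1 core at -186, and the Gata6 window none of these letters. No HNF4 core was found in the 7 windows, and a match or its absence is a description of letters only.

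Cdx1, the homeobox gene of the intestinal crypt and lower villus, was dim on every WPH array and on 2 of 3 SPI arrays and was brighter with CAS. Its probe set (M91450_at) read 60.3, 26 and 28.3 on the WPH arrays, 54.6, 68.9 and 116 on the SPI arrays and 319, 313 and 276 on the CAS arrays. Every CAS array was above every array of the other diets, and WPH and SPI arrays overlapped. Cdx1 was at least 3.03-fold lower with WPH than with CAS, where "at least" means that the 3 dim signals were raised to 100 (log2 change -3.09 ± 0.38, SE, limma adjusted p = 6.49e-05). With SPI it averaged 79.8 ± 32, against 303 ± 23.2 with CAS (SD, n = 3 each), but 2 of the 3 SPI arrays were dim, and with these raised to 100 it was at least 2.87-fold lower (log2 change -1.99, adjusted p = 0.00308 by limma). The difference between WPH and SPI was not called (log2 change -1.10, 95% interval -1.94 to -0.26, limma adjusted p = 0.067). It passed the threshold in 1 of 20 alternatives, the fit without WPH replicate 1 (limma adjusted p = 0.0142).

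Hnf4a, the nuclear receptor that maintains enterocyte genes, was read by 3 probe sets, of which 2 were compared. The probe set D10554_s_at read 48.5, 23.2 and 76.8 with WPH, 123, 128 and 135 with SPI, and 224, 201 and 184 with CAS. The 3 diets did not overlap and ran in the order WPH, SPI, CAS. Hnf4a by this probe set was at least 2.03-fold lower with WPH than with CAS (log2 change -2.20, limma adjusted p = 0.000652) and at least 1.29-fold lower with WPH than with SPI (adjusted p = 0.0136). SPI against CAS was not called (log2 change -0.66, 95% interval -1.47 to 0.16, limma adjusted p = 0.251).

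X57133mRNA_at gave a similar order, with 41.9, 36.2 and 39.6 for WPH, 66.2, 63.0 and 107 for SPI and 186, 233 and 202 for CAS. Here too no diets overlapped. Hnf4a by X57133mRNA_at was at least 2.07-fold lower with WPH than with CAS (log2 change -2.40, limma adjusted p = 6.19e-05) and, with 2 dim SPI arrays raised to 100, at least 2.03-fold lower with SPI than with CAS (log2 change -1.43, adjusted p = 0.00472). WPH against SPI had a log2 change of -0.96 (limma adjusted p = 0.0393), a call that was lost in 13 of 20 alternatives, among them the omission of any array but SPI replicate 2 (adjusted p between 0.0561 and 0.16 without the others). A companion probe set of the same sequence, X57133mRNA_g_at, was dim throughout, with 50.8, 13.6 and 11.5 for WPH, 14, 17.8 and 27.3 for SPI and 77.9, 74.3 and 17.9 for CAS. Its arrays overlapped between diets.

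Foxa3, the forkhead factor also named HNF-3γ, showed the 3 diets apart from each other. By AB017044exon_at it read 89.3, 54.5 and 86.8 with WPH, 286, 241 and 295 with SPI and 544, 549 and 512 with CAS. No SPI array reached a CAS array and no WPH array reached an SPI array. Foxa3 was at least 5.35-fold lower with WPH than with CAS (log2 change -2.83 ± 0.20, SE, limma adjusted p = 9.52e-07), the largest lower bound among the members. It was 1.95-fold lower with SPI than with CAS (log2 change -0.97, limma adjusted p = 0.00483) and at least 2.74-fold lower with WPH than with SPI (log2 change -1.86, adjusted p = 6.86e-05). These 3 calls held in each of 21 alternatives.

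The companion probe set AB017044exon_g_at was dimmer, at 44.6, 46.9 and 48.8 with WPH, 51.3, 49.6 and 106 with SPI and 163, 140 and 161 with CAS. All CAS arrays were again above the others. Foxa3 by AB017044exon_g_at was at least 1.54-fold lower with WPH than with CAS (log2 change -1.72, limma adjusted p = 0.00198). In SPI against CAS, with 2 dim SPI arrays raised to 100, it was at least 1.51-fold lower (log2 change -1.25, limma adjusted p = 0.0226), but without CAS replicate 1, 2 or 3 or SPI replicate 1 or 2 its adjusted p was 0.0823, 0.0512, 0.0808, 0.0804 and 0.0617. WPH against SPI was not called (log2 change -0.47, 95% interval -1.22 to 0.29, adjusted p = 0.391). Both Foxa3 probe sets and 2 of Hnf4a were designed on shared sequences, so they are not independent readings.

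Foxa2, the forkhead factor of endoderm also named HNF-3β, had signals near the bottom of the scale with WPH. L09647_at read 8.9, 9.5 and 6.3 with WPH, 61.6, 58.5 and 66.7 with SPI, and 109, 161 and 204 with CAS. Only the CAS arrays were above 100, and the diets did not overlap. Foxa2 was at least 1.58-fold lower with WPH than with CAS (log2 change -4.24 ± 0.49, SE, limma adjusted p = 4.23e-05). SPI against CAS missed the threshold (log2 change -1.30, 95% interval -2.38 to -0.21, adjusted p = 0.0869 by limma) and passed it in 7 of 20 alternatives, 0.0451 without WPH replicate 3 among them. Between WPH and SPI, both dim, the log2 change was -2.94 (limma adjusted p = 0.00166), or -0.31 (adjusted p = 0.453) with signals under 50 set to 50.

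Foxa1, which shares functions with Foxa2, was dim on all arrays and was not compared. Its signals by X55955_at were 2.0, 30.7 and 15.8 with WPH, 43.0, 27.9 and 26.7 with SPI and 46.3, 38.9 and 36.1 with CAS. The WPH arrays lay under the CAS arrays, with an adjusted p of 0.109 by limma over all 8740 probe sets, and SPI overlapped both.

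Gata6, the zinc finger factor of epithelium along the gut, was above 100 on every array by L22760_at. It read 292, 277 and 296 with WPH, 412, 414 and 390.2 with SPI and 591, 503 and 492 with CAS. The diets did not overlap and again ran in the order WPH, SPI, CAS. Gata6 was 1.83-fold lower with WPH than with CAS (log2 change -0.87 ± 0.12, SE, limma adjusted p = 0.000135) and 1.41-fold lower with WPH than with SPI (log2 change -0.49, adjusted p = 0.0133). With SPI it was 1.30-fold lower than with CAS (log2 change -0.38, limma adjusted p = 0.0413), a call lost in 15 of 21 alternatives, including the omission of any array but WPH replicate 3 (adjusted p between 0.0507 and 0.169 without the others). The other Gata6 probe sets, rc_AA955182_at and rc_AA955182_g_at, were dim, between 14.7 and 46.5 over all arrays. Their WPH arrays lay above their CAS arrays, opposite to L22760_at, and they gave no call over all 8740 probe sets (limma adjusted p = 0.696 and 0.257).

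**Figure D2:**
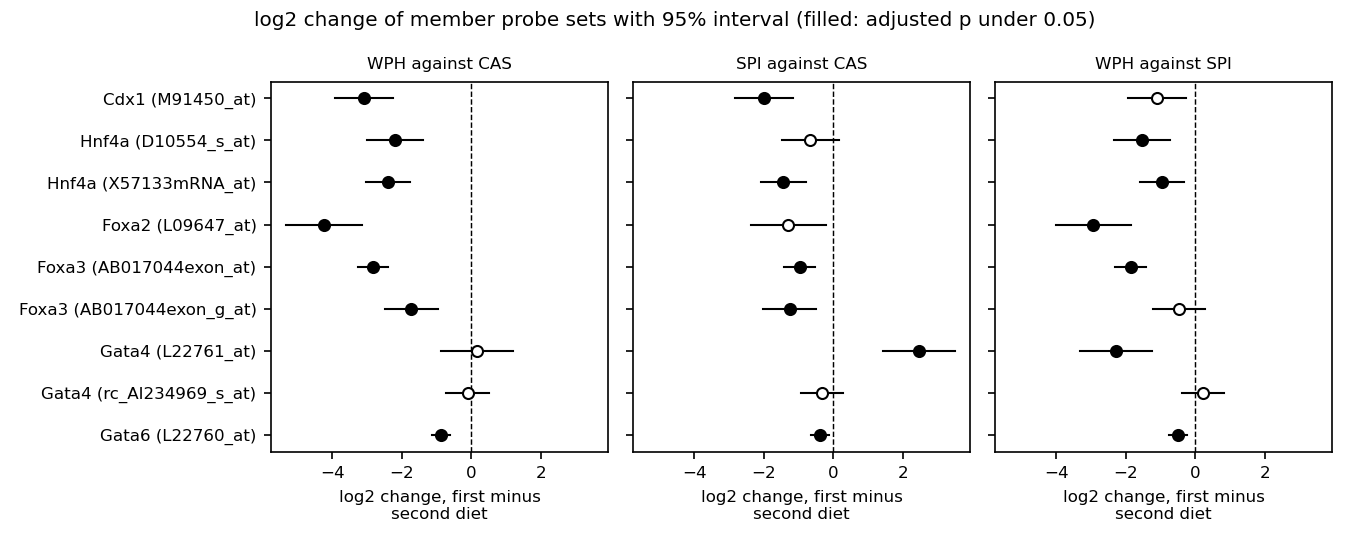
log2 change of the 9 compared member probe sets in WPH against CAS, SPI against CAS and WPH against SPI (first minus second diet). Points are limma estimates, bars are 95% intervals, and filled points have an adjusted p under 0.05. All 7 filled points of WPH against CAS lie left of 0, and Gata4 by L22761_at in SPI against CAS is the only filled point right of 0.

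Gata4, the zinc finger factor of the proximal small intestine, was the member whose signal was higher with SPI, by 1 of its 2 probe sets. L22761_at read 41.5, 63.1 and 28.5 with WPH, 195, 198 and 227 with SPI and 23.0, 74.4 and 30.7 with CAS. All SPI arrays were above 100, and all WPH and CAS arrays were dim and overlapped. Gata4 by L22761_at was at least 2.06-fold higher with SPI than with CAS (log2 change 2.46 ± 0.47, SE, limma adjusted p = 0.00315). It was at least 2.06-fold lower with WPH than with SPI (log2 change -2.29, limma adjusted p = 0.00567) and was not called in WPH against CAS (log2 change 0.17, 95% interval -0.87 to 1.20, adjusted p = 0.808). The other probe set, rc_AI234969_s_at, did not show this pattern. It read 116, 92.7 and 150 with WPH, 77.8, 130 and 100.2 with SPI and 147, 131 and 104 with CAS, with all diets overlapping and limma adjusted p values of 0.803, 0.461 and 0.622 in WPH against CAS, SPI against CAS and WPH against SPI. The 2 probe sets thus disagree, and the transcripts or positions that each detects were not examined.

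The arrays were placed in 3 fluidics rounds, which no label names and which were inferred here from clock times in the instrument settings. WPH replicate 2 shared a round with the CAS arrays, WPH replicates 1 and 3 shared a round with SPI replicates 1 and 2, and SPI replicate 3 was alone. SPI and CAS shared no round. With round as a block, SPI is set against CAS only by way of WPH, and SPI replicate 3 adds nothing to the estimates. In that fit all 7 calls of WPH against CAS held. Of SPI against CAS, Gata4 by L22761_at (log2 change 3.26, limma adjusted p = 0.0778), Hnf4a by X57133mRNA_at (-1.85, 0.0756), Foxa3 by AB017044exon_g_at (-1.60, 0.134) and Gata6 (-0.44, 0.373) were no longer called, although none of these log2 changes was smaller than without the block, while Cdx1 and Foxa3 by AB017044exon_at were and Hnf4a by D10554_s_at became so (adjusted p = 0.0481). Of WPH against SPI, D10554_s_at (log2 change -1.04, adjusted p = 0.0765) and X57133mRNA_at of Hnf4a (-0.66, 0.247) and Gata6 (-0.49, 0.0848) were lost.

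Within a round, WPH replicate 2 differed from the mean of the CAS arrays by a log2 value of -3.54 for Cdx1, -3.13 for Hnf4a by D10554_s_at, -2.51 for Hnf4a by X57133mRNA_at and -4.01 for Foxa2. The difference was -3.29 for Foxa3 by AB017044exon_at, -1.72 by AB017044exon_g_at and -0.93 for Gata6. These were as large as or larger than the values over all arrays, except that of Foxa2 and, by a margin in the third digit, AB017044exon_g_at. Between WPH replicates 1 and 3 and SPI replicates 1 and 2, Foxa2 differed by -3.0, Gata4 by L22761_at by -2.51, Foxa3 by AB017044exon_at by -1.58 and Gata6 by -0.49. Smaller than over all arrays were the differences of Cdx1 (-0.57), Hnf4a by D10554_s_at (-1.04) and X57133mRNA_at (-0.66), and Foxa3 by AB017044exon_g_at (-0.11). That of Foxa3 by AB017044exon_at was also smaller than over all arrays (-1.86), and that of Gata6 by a margin in the third digit.

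Markers of other cell types and of epithelium moved with diet as well. The summed signal of 7 epithelial markers was 8807 to 8997 on WPH arrays, 22120 to 23210 on SPI arrays and 29270 to 29930 on CAS arrays, and 7, 3 and 7 of them were lower in WPH against CAS, SPI against CAS and WPH against SPI. These included the keratins Krt8, Krt18 and Krt19. For 8 smooth muscle markers, among them Actg2, Myh11 and Myl9, the sums were 198700 to 227300 with WPH, 148200 to 151100 with SPI and 102700 to 107000 with CAS, and all 8 were higher with WPH and with SPI than with CAS. The colon label therefore has its epithelial and muscle markers on all arrays, in different proportions.

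Sums for 9 neuronal and glial markers were 11660 to 13260 with WPH, 7067 to 8268 with SPI and 4461 to 4816 with CAS. For 9 fibroblast markers they were 49940 to 61160, 42220 to 50390 and 28660 to 31220, and for 6 adipocyte markers 11030 to 12650, 8287 to 8919 and 5025 to 5985, in the same diets. The 11 leukocyte markers summed to 12300 to 13080 with WPH, 15490 to 15690 with SPI and 13410 to 14030 with CAS, and 5 of 10 compared were higher and 2 lower in WPH against CAS. Cd52, which epididymis also makes, averaged 11.9 with WPH, 11.2 with SPI and 3419 with CAS, and without it the leukocyte sums were 12280 to 13070, 15480 to 15680 and 9738 to 10630. Of tissues near or unrelated to the colon, 15 markers of the male reproductive tract summed to 844 to 1162 with WPH, 1048 to 1170 with SPI and 7888 to 8247 with CAS, with Gpx5, Svs5, Pbsn and Rln1 under 100 on every array. The 13 liver and pancreas markers summed to 4408 to 4925 with WPH, 2381 to 2694 with SPI and 2953 to 3279 with CAS, with Fgb, Amy2a3, Cpa1 and Iapp under 100 throughout. The ratio of 3′ to 5′ β-actin signal was 2.98 ± 0.488 with WPH, 2.21 ± 0.127 with SPI and 1.86 ± 0.0252 with CAS (SD, n = 3 each). For GAPDH this ratio was 1.64 ± 0.0651, 1.56 ± 0.0862 and 1.56 ± 0.195, with overlap. A CreX hybridization control averaged 23960 with WPH, 17360 with SPI and 13730 with CAS. The part of these differences in the members' signals was not tested.

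Set against the mean of 7 epithelial markers, Gata6 was higher with WPH than with CAS, and Foxa3 by AB017044exon_at was lower with both diets. The mean log2 signal of the 7 epithelial markers was taken off each member on the same array, which gives a description with no test. The markers themselves were lower by a mean log2 value of -2.09 in WPH against CAS and -0.47 in SPI against CAS. Single markers ran from -1.25 (Ezr) to -3.23 (Epcam) with WPH and from -0.12 (Krt18) to -0.85 (Cldn3) with SPI. The log2 change of Foxa3 by AB017044exon_at lay inside this range with WPH (-2.83) and below it with SPI (-0.97). That of Gata6 lay above the range with WPH (-0.87) and inside it with SPI (-0.38). As dim signals have no settled log2 value, each difference was also taken with members and markers under 50, or under 100, raised to that value, a step chosen after seeing the data.

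Gata6, with no dim array by L22760_at, was above its CAS level relative to the markers with WPH, by 1.23 ± 0.15 on the log2 scale (pooled SD of 3 arrays each), at every floor. Its own signal was lower with WPH (-0.87), by less than the markers (-2.09), and which cells of the colon wall gave it was not tested. With SPI, Gata6 relative to the markers overlapped its CAS level (0.09 ± 0.16). Foxa3 by AB017044exon_at was below by -0.74 ± 0.24 with WPH, or -0.32 with the floor at 100, and by -0.50 ± 0.07 with SPI at every floor. By AB017044exon_g_at it was above with WPH (0.37, or 1.47 with the floor at 100) and overlapped with SPI (-0.79). All WPH arrays of this probe set were dim, so that its sign with WPH was not settled. Relative to Krt8, Krt18 and Krt19 alone it overlapped CAS with WPH (0.08).

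Cdx1 was below with SPI at every floor, by -1.53 ± 0.38 as scaled and -1.06 with the floor at 100. For Cdx1 with WPH the sign was not settled, at -1.0 ± 0.41 as scaled, -0.41 with the floor at 50 and 0.50 with the floor at 100. Foxa2 with WPH changed from -2.14 as scaled to 0.48 and 1.49 with these floors, and with SPI it was -0.83 as scaled and -0.14, overlapping, with the floor at 100. Hnf4a with WPH was likewise not settled, at -0.10 by D10554_s_at and -0.30 by X57133mRNA_at as scaled, and 1.08 and 1.05 with the floor at 100.

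With SPI, Hnf4a overlapped the CAS level by D10554_s_at (-0.19) and was below it by X57133mRNA_at (-0.97, or -0.55 with the floor at 100). Gata4 was above with WPH by both probe sets (2.26 by L22761_at, 1.99 by rc_AI234969_s_at), and with SPI by L22761_at (2.93, or 1.51 with the floor at 100), while rc_AI234969_s_at overlapped (0.14). With WPH the Gata4 signals themselves stayed near those with CAS (log2 change 0.17 and -0.10), and L22761_at was dim in both. The WPH values are thus close to the fall of the markers (-2.09) and are not read as a rise of Gata4. Krt8, Krt18 and Krt19 as the only markers fell by a mean of 1.80 on the log2 scale with WPH and 0.19 with SPI. Relative to these keratins, Hnf4a by D10554_s_at (-0.47), AB017044exon_g_at of Foxa3 (-1.06) and Gata6 (-0.19) were also below CAS with SPI. Gata6 with WPH was 0.93 above.

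**Figure D3:**
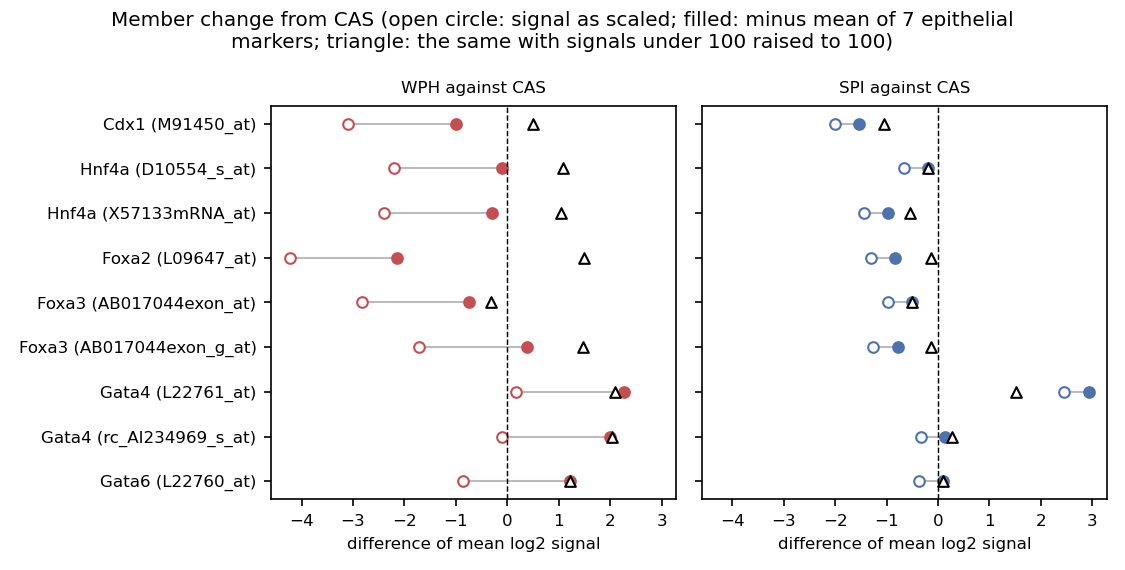
Difference of mean log2 signal from CAS for the 9 compared member probe sets, with WPH (left) and SPI (right). Open circles are signals as scaled, filled circles are after the mean of 7 epithelial markers was taken off, and triangles are the filled values with signals under 100 raised to 100. Gata6 with WPH is at -0.87 as scaled and at 1.23 relative to the markers, whereas the filled circle and triangle of Foxa2 and Cdx1 with WPH lie on opposite sides of 0.

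Among genes that these factors are known to act on, more were lower than higher with WPH and with SPI. A list of 61 such genes had 46 on the array and 41 compared. In WPH against CAS 27 were lower and 3 higher (median log2 change -1.02), in SPI against CAS 20 were lower and 5 higher (-0.46), and in WPH against SPI 22 were lower and 2 higher (-0.58). Over all probe sets compared the lower and higher shares were 17.9 and 20.9%, 10.2 and 12.0%, and 10.1 and 9.83% in the same comparisons. Of the 7 epithelial markers, 7, 3 and 7 were lower, with median log2 changes of -2.05, -0.37 and -1.40. Whether the factors had a part in the changes of the targets was not tested. Muc2, the goblet cell mucin, averaged 1387 with WPH, 5532 with SPI and 16610 with CAS, which is 12.0-fold lower with WPH (limma adjusted p = 5.68e-08) and 3.00-fold lower with SPI than with CAS (6.42e-05). Muc3, a membrane mucin, had a fold of 11.1 lower in WPH (limma adjusted p = 9.51e-09) and 3.56 lower in SPI (1.1e-06). Fabp2, the intestinal fatty acid binding protein, was 7.29-fold and 4.43-fold lower (3.74e-05 and 0.00119).

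Gcg, the proglucagon gene of L cells, averaged 20.2 with WPH, 23.7 with SPI and 156 with CAS, so that only the CAS arrays were above 100 (against CAS, limma adjusted p = 0.0006 for WPH, 0.00209 for SPI). Cyp3a9, a cytochrome P450, was lower with WPH alone, with means of 359, 2626 and 2481 in WPH, SPI and CAS (log2 change against CAS -2.80 for WPH, limma adjusted p = 2.26e-08, but 0.08 for SPI, adjusted p = 0.673). Ttr, transthyretin, was 2.54-fold higher with WPH than with CAS (adjusted p = 0.00475) and lower with SPI (means 436, 44.3 and 171, log2 change -2.02, adjusted p = 0.000945), and it also belongs to the liver list. The other targets higher with WPH were Apoa4 and Alpl (log2 change 0.76 and 0.74). Those higher with SPI were Apoa1 (1.32), Apob (1.54), Apoa4 (0.91), Alpl (0.67) and Slc5a1 (0.84).

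**Figure D4:**
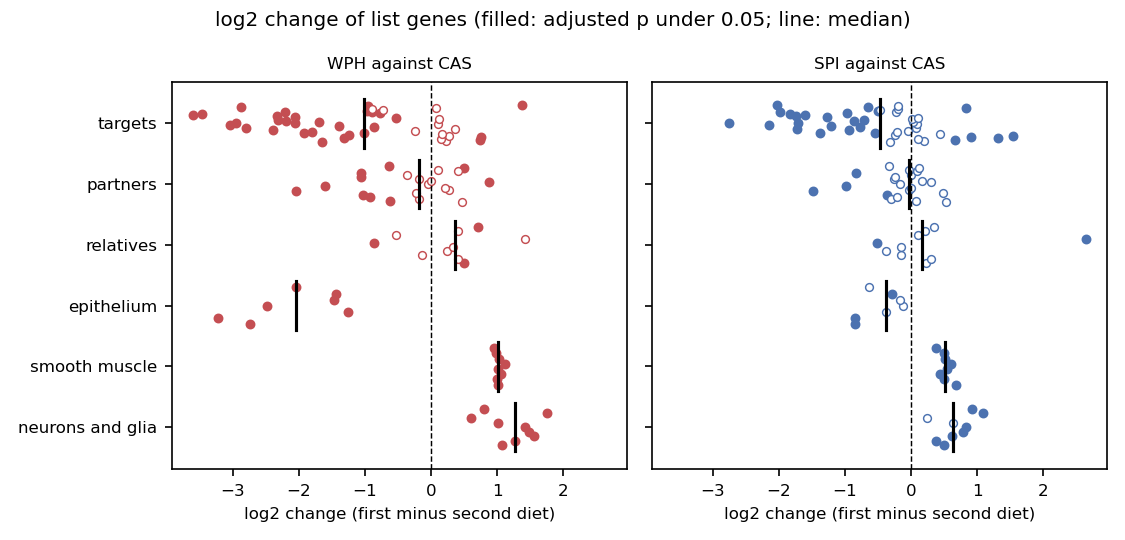
log2 change against CAS of the compared genes of 6 lists, with WPH (left) and SPI (right), 1 probe set per gene. Filled points have a limma adjusted p under 0.05 and lines are list medians, which are -1.02 and -0.46 for targets, and 1.01 and 0.51 for smooth muscle markers.

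Of 44 listed transcription factors that work beside the members, 30 were measured and 21 compared. Among these, 8 were lower and 2 higher in WPH against CAS, 4 lower and 0 higher in SPI against CAS, and 6 lower and 2 higher in WPH against SPI, with median log2 changes of -0.19, -0.03 and -0.16. Against the same shares over all probe sets, 4 of 21 lower and 0 higher with SPI is not read as a difference of this list. Id1, an inhibitor of basic helix-loop-helix factors, lay 4.10-fold (WPH, limma adjusted p = 3.25e-06) and 2.8-fold (SPI, 0.000112) below its CAS level. Klf4, a factor of differentiating epithelium, was 3.15-fold and 2.06-fold lower (4.77e-05 and 0.00323). Pparg, a fatty acid receptor, was 2.03-fold and 1.77-fold lower (0.00135 and 0.0117), and Hes1, a Notch target, 2.04-fold and 1.29-fold (3.11e-05 and 0.0441).

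Nr1h4, the bile acid receptor, was 2.14-fold lower with WPH (limma adjusted p = 0.0061), and Esrra 1.88-fold (0.000767), and neither was called with SPI (0.546 and 0.407). The 2 factors higher with WPH were Klf9 (log2 change 0.88) and Thra (0.50), a thyroid hormone receptor. Of 31 relatives of the members, 14 were measured and 10 compared. Of these, 1 was lower with WPH and 1 with SPI, both times Nr2f6, an orphan receptor, 1.83-fold with WPH and 1.43-fold with SPI (limma adjusted p = 2.02e-05 and 0.00195). Rxrg and Foxd3 were higher with WPH (log2 change 0.71 and 0.49). The relatives' median log2 change was 0.37, 0.16 and 0.15 in WPH against CAS, SPI against CAS and WPH against SPI.

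Pdx1, the homeobox gene of duodenum and pancreas, had a pattern near that of Gata4 by L22761_at. S67435_s_at read 34.8, 28.5 and 101 with WPH, 95.9, 109 and 124 with SPI and 31.3, 13.5 and 12.3 with CAS. SPI arrays were above CAS arrays, and WPH replicate 3 lay among the SPI arrays (SPI against CAS log2 change 2.65 ± 0.61, SE, limma adjusted p = 0.00957, and WPH against CAS 1.42, adjusted p = 0.0908). By Pearson correlation of log2 signals over 9 arrays, among 3390 genes, the nearest to Gata4 by L22761_at were Apob (0.96), which encodes the protein of chylomicrons, Mmp13 (0.95), a collagenase, and Slc5a1 (0.95), the intestinal sodium and glucose transporter.

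Apob read 97.0, 117 and 106 with WPH, 217, 248 and 314 with SPI and 56.7, 148 and 81.6 with CAS, and its SPI arrays were above all others. Slc5a1 read 448, 413 and 353 with WPH, 740.3, 587 and 744 with SPI and 349, 429 and 377 with CAS, again with SPI above the rest. The log2 change of Apob in SPI against CAS was 1.54 (limma adjusted p = 0.00493) and that of Slc5a1 0.84 (0.00165). As these genes were picked for their likeness to L22761_at on the same arrays, a higher signal with SPI was built into the choice. It is no separate evidence on Gata4. Mmp13 averaged 19.9 with WPH, 563 with SPI and 23.1 with CAS. Most called targets went the other way. Of the 41 compared, 20 were lower in SPI against CAS and 5, with Apob and Slc5a1 among them, were higher.

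**Figure D5:**
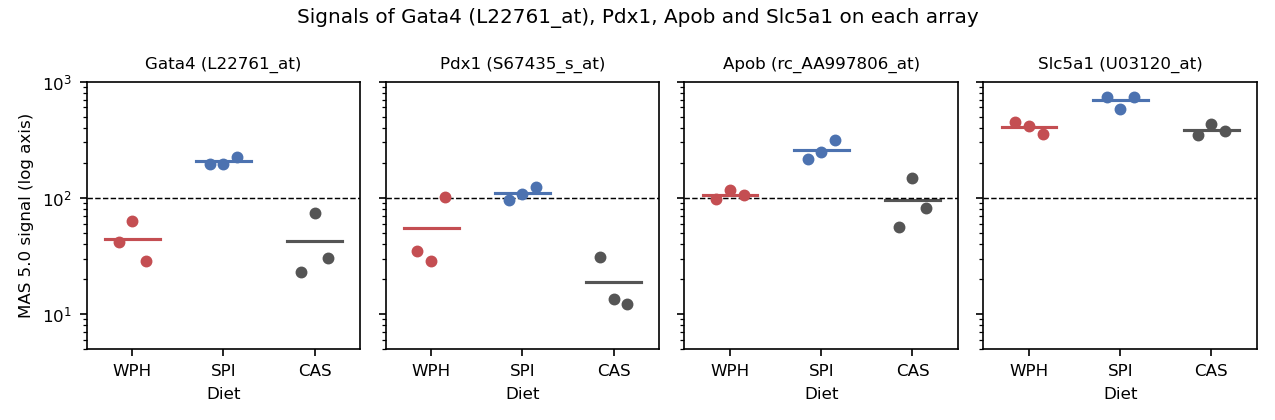
MAS 5.0 signal (log axis) of Gata4 by L22761_at, Pdx1, Apob and Slc5a1 on each array, by diet. Points are arrays, short bars are means of 3 arrays, and the dashed line is at 100. SPI arrays are the highest for Gata4, Apob and Slc5a1, and for Pdx1 a WPH array at 101 lies within the SPI range of 95.9 to 124. Apob and Slc5a1 were picked by their correlation with Gata4, and Mmp13, also among the nearest genes, is not drawn.

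The other members were nearest, by the same measure, to genes that were brightest with CAS. Cdx1 was nearest to Errfi1, Aqp3 and Gsta4 (0.97 each), and Foxa2 to Cyb5b, Krt20 and Padi4 (0.99 each). Foxa3 by AB017044exon_at was nearest to Hes1, Cldn3 and Epcam (0.99 each), of which Cldn3 and Epcam are epithelial markers, and by AB017044exon_g_at to Ephx1, Kazn and Gsta4 (0.97, 0.96 and 0.96). Hnf4a was nearest to Sftpd, C5h1orf210 and Sh2d4a by D10554_s_at (0.98, 0.98 and 0.97) and to Ptprf, Gtf2ird1 and Top2a by X57133mRNA_at (0.98 each). Gata6 was nearest to Prss8, Galnt6 and Tmem171 (0.99, 0.98 and 0.98), and Gata4 by rc_AI234969_s_at to Chrna7, Flt1 and Inpp4b (0.96 each). These values are a description over 9 arrays that share diet, pool and scaling.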

How the data were processed

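The data were 9 Affymetrix RG_U34A arrays, 3 for each diet. The authors computed the deposited signal intensity values from scanned images with MAS 5.0, with 500 as the target average of every array, and detection calls were not used here. Signals reached 100 for 58.7 to 60.3% of probe sets, and precision is limited by 3 arrays per diet. Instrument settings files, deposited with other entries than measurements, were read only for fluidics times.

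Values under 0.1 were set to 0.1 and changed to log2, with no further normalization. Of 8799 probe sets, 59 controls were left out and 5606 were compared in 1 model of 9 arrays with limma 3.58.1 (R 4.3.3) and a variance trend, with Benjamini-Hochberg adjustment over all 5606. The threshold was an adjusted p under 0.05. Folds are ratios of mean signals. The annotation gave 7018 probe sets 1 symbol, 308 several and 1473 none. Lists used the brightest probe set per gene.

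Named genes are all members, the 3 genes most correlated with each compared member probe set, up to 6 genes of each factor list with the largest change, and up to 3 of the brightest cell type markers; other list genes were named after their values were seen. The members and lists were chosen with earlier results of these data known. The fit was tested on simulated data. The alternatives comprised no filter or a filter at 200, a floor at 50, 32 added before log2, median centring, quantile normalization, omission of the variance trend, the 2 diets alone, the methods' t-test, replicate number or fluidics round as a block, and each array left out. Floors of 50 and 100 for values relative to epithelial markers, folds with dim signals raised to 100, and the leukocyte sum without Cd52 were added after seeing the data. Python 3.11.15, numpy 2.4.6, pandas 2.3.3 and matplotlib 3.10.9 were used. RT-PCR and serum data were not analysed here.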

Additional observations from a re-analysis of the deposited data

How the results depend on the processing

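The 7 lower calls of WPH against CAS held in every alternative in which the probe set was tested; the filter at 200 removed Foxa2 and AB017044exon_g_at. The count of member calls fell to 3 in WPH against SPI with only these diets in the fit. There Foxa2 and X57133mRNA_at, with means under 100 in both diets, no longer passed the filter. Only D10554_s_at lost its call in the test (limma adjusted p = 0.0541). With fluidics round as a block the count fell to 3 in SPI against CAS and 3 in WPH against SPI. Leaving out 1 array gave 7 to 7, 4 to 7 and 5 to 6 calls in WPH against CAS, SPI against CAS and WPH against SPI. The replicate block, on numbers that do not pair the arrays (correlations of same-numbered arrays -0.275 to 0.237), gave 7, 5 and 5. The methods' t-test gave 7, 8 and 6 at its own threshold and 7, 4 and 4 after Benjamini-Hochberg. Gata4 in WPH against CAS, not called, changed sign by L22761_at to -0.0792 with a floor at 50, and without 1 array ran from -0.183 (CAS replicate 1) to 0.664, below 0 also without WPH replicate 2 (-0.123). By rc_AI234969_s_at it ran from -0.278 to 0.068 (without WPH replicate 2), above 0 also without CAS replicate 1 (0.00769). Relative to Krt8, Krt18 and Krt19 alone, the median of the 9 probe sets was -0.40 in WPH against CAS, against -0.10 relative to 7 markers. With signals raised to a floor of 50 or 100, added after seeing the data, this median was 0.472 and 1.23, that of SPI against CAS -0.142 at 100, against -0.501, and that of WPH against SPI 1.12 and 1.56, against 0.528. With all probe sets of the targets, 6, 8 and 4 were higher in WPH against CAS, SPI against CAS and WPH against SPI. Over all probe sets, the round block called 252 in SPI against CAS and 560 in WPH against SPI, against 1243 and 1116, and the t-test after adjustment 761 and 533; the lower share of calls in SPI against CAS was 60.3% with the round block, against 45.9%, and in WPH against SPI 62.9%, against 50.6%. Median centring moved the median of all log2 changes in WPH against CAS to 0.10, and all calls of members in that comparison kept their direction. Depth cannot be read from arrays, and values under 100, which most WPH signals of the members were, give only bounds.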
